A study of Mus musculus with 4 samples.

Results

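The cells described here are marrow stromal cells of the P6 mouse tibia that carried abundant mRNA of Cxcl12, the chemokine that holds haematopoietic stem cells and B cell precursors in the marrow. They were picked by gene limits on the counts of unique molecular identifiers (UMIs, 1 for a captured mRNA molecule). A barcode had to show at least 1600 genes, at most 10% of UMIs from mitochondrial genes, and Cxcl12 at 20 or more UMIs per 10000. It also had to lack Cdh5 (endothelial cells), carry at most 1 UMI of Ptprc (leukocytes), stay under 20 per 10000 of Rgs5 (pericytes), 3 of Ifitm5 (mature osteoblasts), 10 of Aspn (fibroblasts) and 50 of Col2a1 (chondrocytes), and hold fewer than 5 UMIs of the cycling genes Top2a and Mki67 together. Of 14181 barcodes, 8256 passed the gene and mitochondrial limits and 197 of those (2.39%) met the whole rule. The level of these genes is therefore what chose the cells, and it is given here as a description. They had 3561 to 38557 UMIs each, with a median of 9555 UMIs and 3120 genes, and 2032597 UMIs in all.

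The study followed the fate of hypertrophic chondrocytes (HCs) and their descendants in bone. Its P6 data are 1 library, for which both tibiae (2) of 1 mouse were pooled. The mouse was male, of genotype Col10a1Cre;Rosa26-Tdtomato;Irx3 +/Δ;Irx5 +/-, and the 4 sequencing entries of that library were counted together. The cells came from the proximal and distal tibia, without the secondary ossification centre and with no sorting for the reporter. Col10a1-Cre acts in HCs, so the tdTomato reporter, read here through the WPRE sequence of its transcript, marks cells that were once HCs. Irx5 dose is lowered in every cell. By the study's methods the Irx3 deletion is specific to HCs, so HC-derived cells carry it and the others do not, and no other genotype was compared. With 1 mouse no test between animals was possible, so gene and cell differences are given as values with 95% intervals (exact Poisson for levels, exact Clopper-Pearson for shares), which cover counting error only.

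Cxcl12-abundant reticular (CAR) cells are stromal cells that lie around marrow sinusoids and supply blood-forming cells with Cxcl12 and stem cell factor, the product of Kitl. In adult marrow most of them carry the leptin receptor, depend on the transcription factors Foxc1 and Ebf3, and express adipocyte genes such as Adipoq and Lpl without storing fat. They can give rise to adipocytes and osteoblasts.

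The marker genes that the rule did not use were measured as a check of the name. Adipoq (chr16:23146536-23158028, plus strand, GRCm38), which encodes the fat hormone adiponectin, was at 251 CPM (230.1 to 274), where CPM is the usual scaling of summed UMIs by the total of the class. It stood at 4.34 CPM or below in the osteoblast, fibroblast and pericyte classes described next and at 0.287 CPM in leukocytes, a cell type that should lack it. Lpl (chr8:68880491-68907448), encoding lipoprotein lipase, was at 1700.3 CPM (1644 to 1758) and Kitl (chr10:100015630-100100416) at 524 CPM (493 to 556). After thinning each cell to 5000 UMIs, which left 192 cells and removed 5 shallower ones, Kitl had a UMI in 80.2% of the cells, Lpl in 75.5%, Lepr in 64.1% and Adipoq in 27.6% (89.8%, 82.2%, 81.2% and 36.0% before thinning). The same thinned shares in leukocytes were 1.39%, 15.8%, 1.39% and 0.173%, at a median depth of 12621.5 UMIs against 9555. Of 9 markers outside the rule (the 3 named here with Lepr, Foxc1, Ebf3, Vcam1, Grem1 and Il7), at least 3 were found in 83.9% of the thinned cells and at least 5 in 58.9%. At least 3 were found in 4.86% of Cxcl12-low osteoblast-lineage cells and in 52.0% of pericytes. Adipoq was uneven between cells: 71 of the 197 carried it, and the level per cell ran from 0 through a median of 0 to 3058 CPM. The label of a Cxcl12-abundant stromal cell was thus carried by most of these cells, and the adipocyte hormone by a minority.

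The Cxcl12 limit alone took in 286 cells. Of these, 34 were left out solely for cycling genes, 25 solely for Cdh5, 8 for Aspn, 4 each for Ptprc, Col2a1 and Rgs5, and 2 for Ifitm5. Just outside the limit, 16 otherwise eligible cells had 15 to 20 Cxcl12 UMIs per 10000, and their summed levels were 397 CPM for Lpl, 113 for Kitl, 142 for Lepr and 0 for Adipoq. Just inside, the 14 cells at 20 to 25 were at 586, 113, 120.1 and 21.2 CPM, and the 10 cells at 25 to 30 were at 235, 209, 69.7 and 0. The levels of Lpl, Lepr and Adipoq thus did not rise steadily across the limit.

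For comparison, 4 neighbouring stromal classes were taken with limits of the same kind. Cxcl12-low osteoblast-lineage cells (145) and mature osteoblasts (279) had Col1a1 at 100 or more per 10000, and the latter also Ifitm5 at 3 or more. Aspn-rich fibroblasts numbered 176 and Rgs5-rich pericytes 86. Endothelial cells (852), leukocytes (1822) and late erythroid cells (415) show the level that RNA from other cells can reach. The late erythroid class shared 1 cell with the Cxcl12-abundant cells, and 4, 4, 2 and 3 with the 4 stromal classes in the order named. The Cxcl12-low class is mixed. A UMI of at least 3 of 8 fibroblast or tendon genes (Cpxm2, Angptl1, Cilp2, Thbs4, Tnn, Kera, Mfap5 and Tnmd, chosen after their values were seen) was found in 52 of its 145 cells (35.9%), in 95 of the 176 Aspn-rich fibroblasts (54.0%) and in 0 of the 197 Cxcl12-abundant cells. The 0 follows from how the genes were chosen, since 7 of the 8 were among the 10 with the smallest ratios of Cxcl12-abundant over Cxcl12-low cells. Values without those 52 cells are given for some of the genes below.

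Against Cxcl12-low osteoblast-lineage cells, most listed genes of the blood-forming niche and of adipocytes that passed the filter were higher in Cxcl12-abundant cells, and most osteoblast genes were lower. Outside the genes that define the classes, 3352 genes had at least 50 CPM in either class and 100 UMIs together. Of these, 479 (14.3%) were at least 2-fold higher in the Cxcl12-abundant cells and 212 (6.32%) at least 2-fold lower, on log2 ratios with 1 CPM added, and the median log2 ratio over all 3352 was 0.29. The counts were 929 higher (27.5%) and 269 lower (7.97%) against mature osteoblasts, 401 (11.3%) and 300 (8.48%) against Aspn-rich fibroblasts, and 340 (9.5%) and 247 (6.9%) against pericytes. A set of 120 of 3120 genes (3.85%) was at least 2-fold higher than in each of the 4 classes. Without the 52 comparison cells rich in fibroblast genes, 513 genes were higher and 140 lower.

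**Figure D1:**
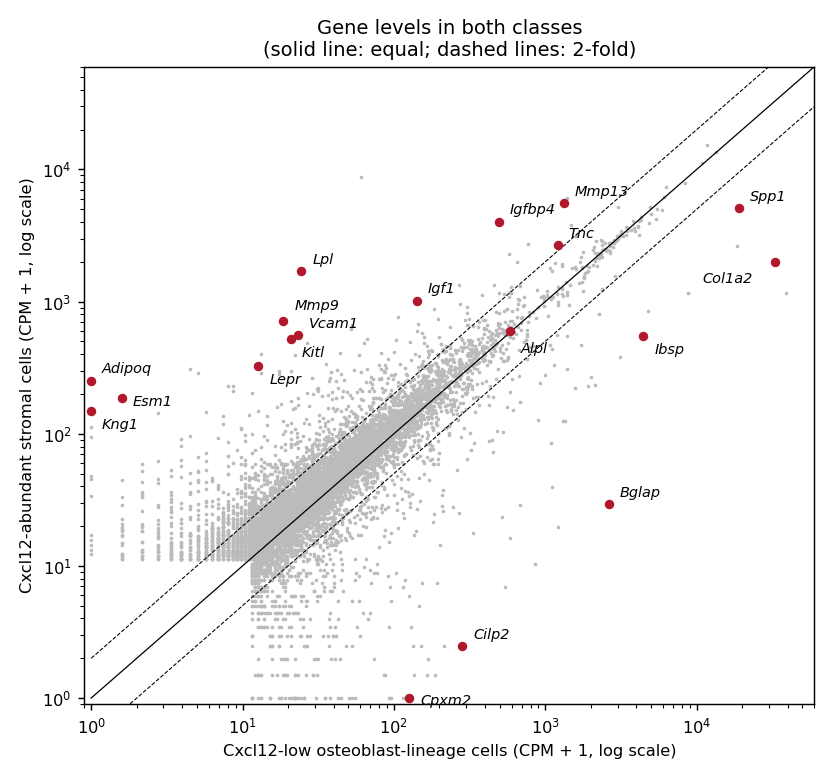
Level of each gene in Cxcl12-abundant stromal cells (vertical, CPM + 1, log scale) against Cxcl12-low osteoblast-lineage cells (horizontal, CPM + 1, log scale). Each grey point is a gene, red points are named, the solid line marks equal levels and the dashed lines 2-fold. Adipoq and Kng1 lie on the left edge because they had 0 UMIs in the Cxcl12-low class, and Spp1, Ibsp, Col1a2 and Bglap lie under the lower dashed line.

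Most of the niche ligands measured were higher in Cxcl12-abundant cells than in the osteoblast classes. Of 20 listed haematopoietic niche factors, 14 outside the rule passed the size filter against Cxcl12-low cells. Of these, 11 were higher and 3 lower (Tgfb2, Ptn and Pdgfa), with a median log2 ratio of 2.31 beside 0.29 over all genes tested. Kitl was at 524 CPM (493 to 556) in the Cxcl12-abundant cells, against 19.96 CPM in Cxcl12-low osteoblast-lineage cells, 14.3 in mature osteoblasts, 51.0 in Aspn-rich fibroblasts and 201 in pericytes. Its level per cell ran from 0 through a median of 415 to 3526 CPM, and 177 of the 197 cells had a UMI. The ratio was 26.2-fold (18.7 to 38.1) over Cxcl12-low cells and 2.61-fold (2.21 to 3.11) over pericytes. Endothelial cells, the other known source of Kitl in marrow, were at 294 CPM (284 to 304).

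Vcam1, the adhesion molecule that holds blood-forming cells, followed the same order. It was at 554 CPM (523 to 588) against 22.3 CPM in Cxcl12-low osteoblast-lineage cells, 6.14 in mature osteoblasts, 66.2 in Aspn-rich fibroblasts and 181 in pericytes. Per cell it ran from 0 through a median of 316 to 6124 CPM. Il7, the cytokine that B cell precursors need, was sparse, with a UMI in 43 of the 197 cells (14.1% after thinning, 0 of the thinned leukocytes), and summed to 33.0 CPM (25.5 to 41.9). It had 0 UMIs in Cxcl12-low cells, so the level was at least 18.7-fold higher, taking 3 counts for the 0. Csf1, the macrophage and osteoclast growth factor, was at 293 CPM (269.7 to 317) against 86.9 CPM in Cxcl12-low osteoblast-lineage cells, 23.8 in mature osteoblasts, 91.1 in Aspn-rich fibroblasts and 30.9 in pericytes. Angpt1, the Tie2 ligand, was at 124 CPM (109.6 to 141) and 7.07-fold (4.83 to 10.7) above Cxcl12-low cells. Igf1 was at 1018 CPM (974.5 to 1063) against 141 CPM in Cxcl12-low osteoblast-lineage cells, 10.5 in mature osteoblasts, 740.2 in Aspn-rich fibroblasts and 307 in pericytes. It was 1.38-fold (1.28 to 1.48) above Aspn-rich fibroblasts and 11.4-fold (9.40 to 13.9) above the Cxcl12-low cells without fibroblast genes. Cxcl14, a chemokine of fibroblasts and epithelia, was at 409 CPM (382 to 438) with a median of 0 per cell, and the fold over Cxcl12-low cells rose from 5.05-fold (4.21 to 6.09) to 102-fold (43.3 to 313) without the fibroblast-rich cells.

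Some niche factors were as high or higher in vessel-associated classes. Il6 was at 59.5 CPM against 285 in pericytes and 88.3 in leukocytes, Ccl2, the monocyte chemokine, at 336 against 360.0 in pericytes and 476 in endothelial cells, and the Notch ligand Jag1 at 66.4 against 131 in pericytes. Ptn, encoding the growth factor pleiotrophin, was lower at 71.3 CPM, against 452 in Cxcl12-low cells and 1732 in Aspn-rich fibroblasts. Bmp4 and Bmp6, ligands of the BMP pathway, were at 79.7 and 103 CPM against 27.6 and 19.96 in Cxcl12-low cells. Bmp6 had 3 UMIs in the Cxcl12-low cells without fibroblast genes, a ratio of 42.5 (14.4 to 208). In counts, 11 of 13 listed factors past the filter were higher than in mature osteoblasts with none lower, 8 of 14 were higher and 2 lower than in Aspn-rich fibroblasts, and 8 of 14 were higher and 3 lower than in pericytes.

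**Figure D2:**
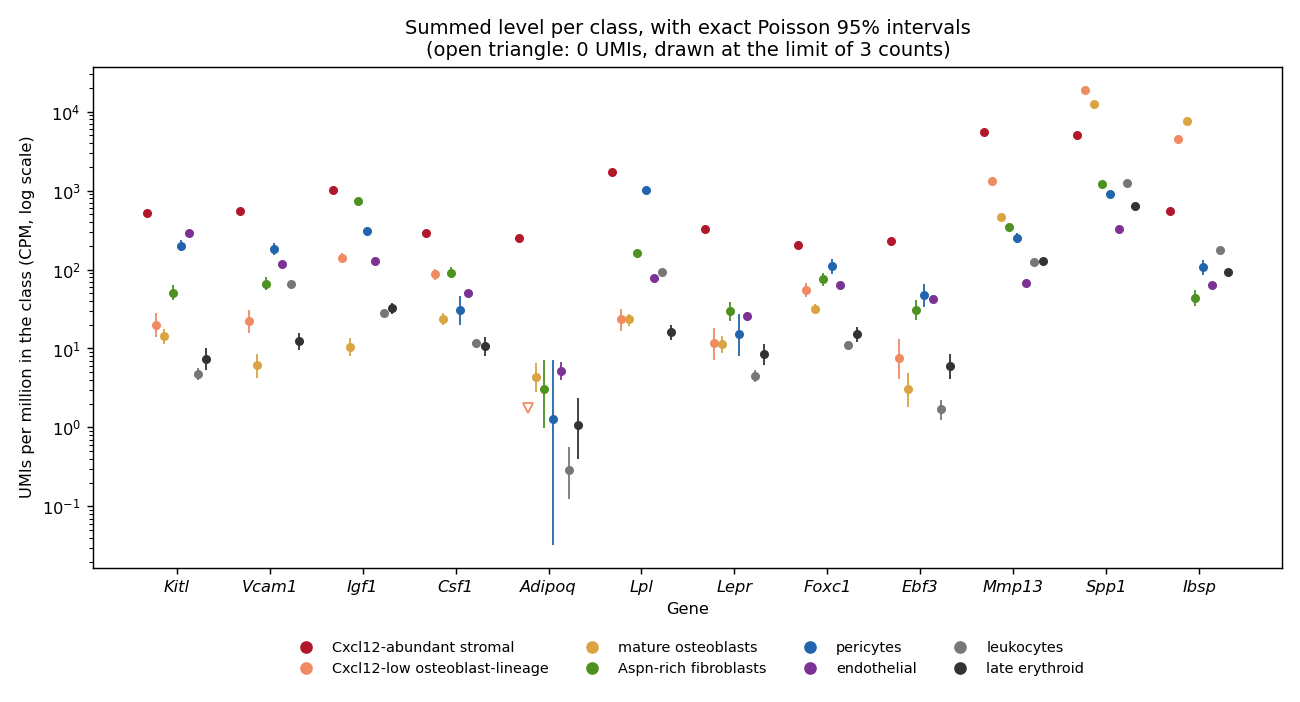
Summed level (CPM, log scale) of 12 genes in the 8 cell classes, with exact Poisson 95% intervals as bars. Open triangles mark 0 UMIs, drawn at 3 counts. Cxcl12-abundant stromal cells (dark red) are highest for the genes from Kitl to Mmp13, with pericytes close for Lpl and Aspn-rich fibroblasts close for Igf1, and lie below both osteoblast classes for Spp1 and Ibsp.

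Most adipo-lineage genes past the filter were higher, while several genes of stored fat had 0 UMIs. Of 23 listed adipo-lineage genes, 13 passed the filter against Cxcl12-low cells, with 11 higher, 1 lower (Fabp5) and a median log2 ratio of 3.77 beside 0.29. Adipoq was at least 143-fold higher, its 0 UMIs in Cxcl12-low cells taken as 3. Lpl was 72.4-fold (53.0 to 102) higher than in Cxcl12-low cells and 1.69-fold (1.56 to 1.82) higher than in pericytes, which held 1008 CPM. Lepr, the leptin receptor, was at 323 CPM (299 to 348) against 11.7 CPM in Cxcl12-low osteoblast-lineage cells, 11.4 in mature osteoblasts, 29.8 in Aspn-rich fibroblasts and 15.4 in pericytes, so it parted these cells from pericytes by 20.9-fold (11.9 to 40.7). Cebpa, an adipogenic transcription factor, was at 92.5 CPM (79.7 to 107) against 5.87 in Cxcl12-low cells and 41.1 in pericytes. Pparg, the master regulator of fat cells, was below the filter at 43.3 CPM (34.7 to 53.3) with a UMI in 56 cells, against 1 UMI in Cxcl12-low cells and 29.6 CPM in pericytes.

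Secreted proteins shared with liver and fat were part of this group. Hp (haptoglobin) was at 996 CPM (953 to 1041) against 26.4 in Cxcl12-low cells, and Agt (angiotensinogen) at 481 CPM (451 to 512) against 25.8. Apoe, the lipid carrier, was at 524 CPM (493 to 557) against 65.2, and leukocytes held 1409.9 CPM. Among genes of mature fat cells, Plin1, Plin4, Cidec, Cfd, Retn and Lep had 0 UMIs in the Cxcl12-abundant cells, which allows up to 1.48 CPM each. Fabp4 was at 41.8 CPM, and 50.6% of its UMIs lay in 1 cell, against 1353 in pericytes and 3082 in endothelial cells. Against mature osteoblasts 10 of 13 adipo-lineage genes were higher and none lower, against Aspn-rich fibroblasts 10 of 13 were higher and 1 lower, and against pericytes 7 of 14 were higher and 2 lower (Fabp4 and Fabp5).

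Of the transcription factors past the filter, 8 of 14 stayed within 2-fold of Cxcl12-low cells and 5 of 14 within 2-fold of mature osteoblasts. Over all 3352 genes tested against Cxcl12-low cells, 14.3% were higher and 6.32% lower. Of 22 listed stromal factors, 14 passed the filter against Cxcl12-low cells, with 5 higher (Foxc1, Ebf1, Ebf3, Runx1 and Snai2), 1 lower (Mef2c) and a median log2 ratio of 0.31, close to the 0.29 of all genes. Ebf3, which CAR cells need to keep the marrow cavity open, was at 228 CPM (208 to 249.5) against 7.63 CPM in Cxcl12-low osteoblast-lineage cells, 3.07 in mature osteoblasts, 31.0 in Aspn-rich fibroblasts and 47.6 in pericytes. Foxc1, required for CAR cells to form, was at 206 CPM (187 to 227) against 55.8 CPM in Cxcl12-low osteoblast-lineage cells, 31.4 in mature osteoblasts, 75.3 in Aspn-rich fibroblasts and 109 in pericytes. Ebf1 was at 678 CPM (643 to 715) but at 1117 CPM (1044 to 1194) in pericytes. Runx1, better known from blood, was at 638 CPM (604 to 674), 2.71-fold (2.42 to 3.04) above Cxcl12-low cells. Runx2, the osteoblast lineage factor, was at 167 CPM (149.5 to 186), beside 114 in Cxcl12-low cells and 151 in mature osteoblasts, while pericytes were at 29.6 CPM. Sp7, which acts after Runx2, was at 41.8 CPM (33.4 to 51.7) against 51.7 in Cxcl12-low cells and 111 in mature osteoblasts. Against the other classes 7 of 14 factors were higher and 2 lower (mature osteoblasts), 3 of 15 higher and none lower (Aspn-rich fibroblasts) and 2 of 14 higher and 2 lower (pericytes).

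Skeletal progenitor markers went both ways. Of 12 past the filter against Cxcl12-low cells, 6 were higher and 3 lower (Cd34, Nt5e and Cspg4). Pdgfrb, the PDGF receptor of perivascular cells, was at 393 CPM (366 to 421) against 57.5 CPM in Cxcl12-low osteoblast-lineage cells, 8.31 in mature osteoblasts, 121 in Aspn-rich fibroblasts and 514 in pericytes. Pdgfra, the receptor of mesenchymal progenitors, was at 103 CPM against 21.9 in pericytes. Ly6a (Sca-1) had 0 UMIs, against 289 CPM in Aspn-rich fibroblasts, and Thy1 was at 7.38 CPM against 137. Grem1, a BMP antagonist of skeletal stem cells, was at 112 CPM (97.6 to 127) and at 129 CPM in Cxcl12-low cells, where the 93 cells without the fibroblast genes held 1 UMI, a ratio of 139 (24.6 to 5499.9). Against mature osteoblasts 7 of 10 were higher and 1 lower, against Aspn-rich fibroblasts 5 of 14 higher and 5 lower, and against pericytes 3 of 13 higher and 6 lower.

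Most listed osteoblast genes past the filter were lower than in the Cxcl12-low and mature osteoblast classes, and most were higher than in pericytes. Of 22 listed osteoblast genes past the filter against Cxcl12-low cells, which were chosen on Col1a1, 13 were lower, 3 higher (Dlx5, Tnc and Slc20a2) and the median log2 ratio was -2.38. Bglap, the osteocalcin gene of mature osteoblasts, was at 28.5 CPM (21.7 to 36.9) against 2644 in Cxcl12-low cells and 228 in leukocytes, so it lay under the level seen in cells that should lack it. Ibsp (bone sialoprotein) was at 545 CPM (513 to 578), 8.17-fold (7.67 to 8.70) below Cxcl12-low cells, and Spp1 (osteopontin) at 5081 CPM (4983 to 5179.6), 3.73-fold (3.65 to 3.81) below. Both stood above leukocytes, at 178 and 1230.4 CPM, and above pericytes, at 107 and 901 CPM. Alpl, the phosphatase of early osteoblasts, was at 597 CPM (564 to 631) against 587 in Cxcl12-low cells, and without the fibroblast-rich cells it was 1.31-fold (1.20 to 1.43) lower. Tnc, encoding tenascin C, was at 2668 CPM (2597 to 2739.5) with a UMI in 195 of 197 cells. It was 2.22-fold (2.11 to 2.33) above Cxcl12-low cells, and 1.98-fold (1.87 to 2.09) without the fibroblast-rich cells, under the 2-fold called. It was 2.02-fold (1.92 to 2.12) above Aspn-rich fibroblasts and 7.33-fold (6.50 to 8.29) above pericytes.

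Col1a1, which the rule did not use, came to 1155 CPM summed over the cells, about the level in leukocytes (1069) and under that in endothelial cells (1549.5). The median per cell, however, was 1000 CPM, against 174 in leukocytes and 202 in endothelial cells, and after thinning 96.4% of the cells had a UMI against 61.1% of leukocytes. Against mature osteoblasts 14 of 22 osteoblast genes were lower and 4 higher, against Aspn-rich fibroblasts 7 of 16 lower and 6 higher, and against pericytes 10 of 13 were higher and none lower.

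Matrix metalloproteinases went different ways. Mmp13, the collagenase of HCs and early osteoblasts, was at 5526 CPM (5424 to 5629) against 1318 CPM in Cxcl12-low osteoblast-lineage cells, 466 in mature osteoblasts, 349 in Aspn-rich fibroblasts and 253 in pericytes, and 188 of 197 cells had a UMI. The fold over Cxcl12-low cells was 4.19-fold (4.01 to 4.39), and 3.09-fold (2.95 to 3.24) without the fibroblast-rich cells. Mmp14, a membrane-bound metalloproteinase, was at 573 CPM (541 to 607) against 571 CPM in Cxcl12-low osteoblast-lineage cells, 186 in mature osteoblasts, 1058 in Aspn-rich fibroblasts and 389.6 in pericytes, a fold over Cxcl12-low cells of 1.004-fold (0.921 to 1.09). Pth1r, the parathyroid hormone receptor, was at 176 CPM (158 to 195) against 248 CPM in Cxcl12-low osteoblast-lineage cells, 379 in mature osteoblasts, 157 in Aspn-rich fibroblasts and 105 in pericytes. Mmp2, the gelatinase of fibroblasts, was lower at 205 CPM against 586 in Cxcl12-low cells. Of 12 genes of this list past the filter against Cxcl12-low cells, 3 were higher (Mmp9, Mmp11 and Mmp13) and 3 lower (Mmp2, Mmp16 and Timp1). The counts were 6 and 4 of 12 against mature osteoblasts, 3 and 3 of 11 against Aspn-rich fibroblasts, and 3 and none of 11 against pericytes.

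Mmp9, a gelatinase best known from osteoclasts and neutrophils, was uneven. It summed to 718 CPM (681 to 756) against 17.6 CPM in Cxcl12-low osteoblast-lineage cells, 23.8 in mature osteoblasts, 139 in Aspn-rich fibroblasts and 517 in pericytes, and per cell it ran from 0 through a median of 119 to 19682 CPM, with 15.1% of its UMIs in 1 cell. When comparison cells were admitted from Col1a1 at 50 per 10000, the log2 ratio over Cxcl12-low cells fell from 5.27 to 1.77. In the 10 cells with the most Mmp9, whose summed level was 7801 CPM, the osteoclast genes Ocstamp, Dcstamp, Atp6v0d2 and Oscar had 0 UMIs and Acp5 had 1, while Ctsk had 14 UMIs in 6 of them (141 CPM). By the reporter, described further on, 9 of these 10 cells were HC-derived.

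The 3 osteoclast regulators and 5 of the 10 IGF genes that passed the filter were higher than in Cxcl12-low cells. Tnfsf11, encoding RANKL, the cytokine that osteoclasts need to form, was at 282 CPM (259.8 to 306) against 43.5 CPM in Cxcl12-low osteoblast-lineage cells, 13.2 in mature osteoblasts, 42.5 in Aspn-rich fibroblasts and 57.9 in pericytes, and 157 of 197 cells had a UMI. Its decoy receptor Tnfrsf11b was at 9.35 CPM against 18.8 in Cxcl12-low cells. Of 11 listed regulators, 3 passed the filter against Cxcl12-low cells (Tnfsf11, Csf1 and Sfrp1), and all 3 were higher. So they were against mature osteoblasts (3 of 3), Aspn-rich fibroblasts (3 of 6, with Wnt5a and Wnt16 lower) and pericytes (3 of 4). Over all genes tested, 14.3%, 27.5%, 11.3% and 9.5% were higher against these classes, in that order. Against Cxcl12-low cells, mature osteoblasts and Aspn-rich fibroblasts, Tnfsf11 reached the CPM limit only in the Cxcl12-abundant cells. Csf1 did so against mature osteoblasts and pericytes. The filter thus partly set these counts. Igfbp4, which binds and restrains IGFs, was found in every one of the 197 cells, from 283 through a median of 2709.5 to 16928 CPM, and summed to 4027 CPM (3940.1 to 4115) against 491 CPM in Cxcl12-low osteoblast-lineage cells, 81.5 in mature osteoblasts, 994 in Aspn-rich fibroblasts and 554 in pericytes. Without the fibroblast-rich cells its ratio over Cxcl12-low cells was 16.7-fold (14.9 to 18.8). Pappa, the protease that cleaves Igfbp4, was at 298 CPM (274 to 322) and 14.9-fold (10.6 to 21.7) above Cxcl12-low cells. Igfbp5 was at 2722 CPM (2650.4 to 2794), 3.55-fold (3.34 to 3.78) above Cxcl12-low cells and 1.13-fold (1.09 to 1.18) above Aspn-rich fibroblasts. Of 10 IGF genes past the filter 5 were higher than in Cxcl12-low cells and 1 lower (Igfbp6), with 8 of 9 higher against mature osteoblasts, 2 of 11 higher and 4 lower against Aspn-rich fibroblasts, and 5 of 9 higher and 1 lower against pericytes.

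Secreted BMP and Wnt regulators and basement membrane genes gave further contrasts. Of 12 BMP and Wnt genes past the filter, 7 were higher than in Cxcl12-low cells and 1 lower (Dkk3), all 12 were higher than in mature osteoblasts, 7 of 14 were higher and 3 lower than in Aspn-rich fibroblasts, and 10 of 13 were higher and none lower than in pericytes. Rspo3, which strengthens Wnt signals, was at 297 CPM (273 to 321) against 16.4 CPM in Cxcl12-low osteoblast-lineage cells, 3.61 in mature osteoblasts, 73.5 in Aspn-rich fibroblasts and 27.0 in pericytes, and the Wnt inhibitor Wif1 at 609 CPM (576 to 644) against 472 in Cxcl12-low cells. Of 12 basement membrane genes, 7 were higher than in Cxcl12-low cells and 1 lower (Col15a1). Against pericytes, which wrap vessels in this matrix, 1 of 14 was higher and 7 lower: Col4a1 was at 515 CPM (484 to 547) against 3302 CPM in pericytes and 103 in Cxcl12-low cells, or 24.2 in those without fibroblast genes. The counts were 9 of 11 higher and none lower against mature osteoblasts, and 2 of 14 higher and 2 lower against Aspn-rich fibroblasts. Immediate early genes, which cell isolation can induce, were near the background against Cxcl12-low cells, at a median log2 ratio of 0.37 beside 0.29 over all genes. Of 10 past the filter, 2 were higher (Jun and Zfp36) and none lower. Against mature osteoblasts none of 10 was higher and 1 was lower. Their median log2 ratio was 0.049 beside 0.53 over all genes, of which 27.5% were higher. The counts were none and 1 of 11 against Aspn-rich fibroblasts, and none and 2 of 11 against pericytes.

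The largest ratios over Cxcl12-low cells, by rule, were those of Adipoq, Kng1, Esm1, Kng2, Il1rn, Lpl, Gdpd2, Serpina3g, Aldh1a2, Mmp9, Hp, Plac8, Ggt5, Wdr86 and Ebf3. Kng1 and Kng2, the kininogen genes, were at 148 CPM (131 to 165) and 111 CPM (96.7 to 126) and had 0 UMIs in Cxcl12-low cells and in pericytes, so they were at least 83.8-fold and 62.8-fold above the former. Esm1, encoding a secreted proteoglycan of endothelial tip cells, was at 184 CPM (166 to 204) against 24.98 in endothelial cells and 1 UMI in Cxcl12-low cells, a ratio of 314 (56.0 to 12442). Il1rn, the interleukin 1 antagonist, was at 94.0 CPM (81.1 to 108) in 41 cells and also at 61.1 CPM in leukocytes. Plac8 was at 398 CPM but at 1125 in leukocytes. Gdpd2, a glycerophosphodiester phosphodiesterase gene, was spread widely, with a UMI in 163 of the 197 cells and 310.4 CPM (287 to 336) against 3.52 CPM in Cxcl12-low osteoblast-lineage cells, 3.25 in mature osteoblasts, 16.4 in Aspn-rich fibroblasts and 32.1 in pericytes. Aldh1a2, which makes retinoic acid, was at 142 CPM (126 to 159.6) against 1.76 CPM in Cxcl12-low osteoblast-lineage cells, 0.361 in mature osteoblasts, 12.1 in Aspn-rich fibroblasts and 7.72 in pericytes. Ranked by the smallest of the log2 ratios over the 4 classes, Adipoq (5.56), Il1rn (5.38), Serpina3g (4.86), Kng1 (4.66), Esm1 (4.59), Dpep1 (4.30), Kng2 (3.86), Wisp2 (3.54), Aldh1a2 (3.45) and Lepr (3.40) came first.

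The smallest ratios were those of Cpxm2, Igfbp6, Angptl1, Cilp2, Thbs4, Tnn, Kera, Mfap5, Bglap and Col15a1. Of these, 7 belong to the 8 that mark the mixed cells above. Cpxm2 and Kera had 0 UMIs in the Cxcl12-abundant cells, at least 84.7-fold and 62.5-fold under the Cxcl12-low class. Without those 52 cells, 5 of the 7 had few or no UMIs left in the comparison, namely Kera 0, Cpxm2 2, Angptl1 5, Cilp2 6 and Thbs4 7, so their low ratios rested on the mixed cells, which these genes had picked. The other two of them kept more, with Tnn at 97 UMIs and Mfap5 at 161, against 0 and 1 UMI in the Cxcl12-abundant cells. Col15a1 was then 10.9-fold (3.24 to 57.4) lower in the Cxcl12-abundant cells, and Bglap, which does not depend on them, was 127-fold (97.8 to 167) lower.

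RNA of blood cells lay mostly in a few of the Cxcl12-abundant cells. The 13 leukocyte markers summed to 2048 CPM, with S100a9 the most abundant at 851, against 1212 CPM in Cxcl12-low cells. In 4 cells these markers reached 50 per 10000, and those 4 held 1204 of the 1309 S100a8 UMIs, 206 of the 211 Cd74 UMIs and 100 of the 101 H2-Aa UMIs. The doublet caller Scrublet marked 2 of these 4 as doublets, and no other Cxcl12-abundant cell. Without them, in 193 cells, S100a8 fell to 53.3 CPM and Adipoq stood at 258 CPM. Haemoglobin summed to 2046 CPM over 4 genes, with 65.6% of it in 5 cells. In Cxcl12-low cells it summed to 16090.0 CPM, with 97.1% of it in 6 cells. Without these haemoglobin-rich cells the order turned, at 723 CPM in Cxcl12-abundant and 497 CPM in Cxcl12-low cells. Chondrocyte markers summed to 1314 CPM, led by Col2a1, a gene of the rule, against 6377 in leukocytes. Endothelial markers summed to 28.5 CPM against 5475 in endothelial cells, with Kdr at 0 UMIs, and pericyte or smooth muscle markers to 469.8 CPM, led by Notch3, against 18425 in pericytes. Schwann cell and skeletal muscle markers had 3 and 6 UMIs in all, and mature osteoblast, fibroblast and cycling markers summed to 86.6, 103 and 88.1 CPM. The leukocyte, endothelial, pericyte, mature osteoblast, fibroblast and cycling markers also include genes that the rule kept low, so these sums only describe the chosen cells. Osteoclast markers summed to 879 CPM, of which Mmp9 made up 718 and Ctsk 153, and Dcstamp and Oscar were at 0 UMIs. With cells rich in leukocyte RNA left out of both classes, 487 genes were higher and 210 lower than in Cxcl12-low cells, and with cells rich in haemoglobin left out of both 475 and 213, against 479 and 212 with all cells.

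Within the Cxcl12-abundant cells, many niche and adipo-lineage genes were higher where Cxcl12 was higher, and many osteoblast genes were lower. The 197 cells were ranked by Cxcl12 per 10000 and divided into quartiles, whose medians were 30.3, 55.7, 106 and 170.4 per 10000, and the 4 cells rich in leukocyte RNA were left out of the levels. Between the lowest and the highest quartile, 6 of 9 niche factors past the filter were at least 2-fold higher and none lower, with Csf1, Ccl2 and Igf1 within 2-fold. Of 11 adipo-lineage genes 9 were higher and none lower, with Cebpb and Cebpd within 2-fold. Of 10 osteoblast genes 6 were lower and none higher, with Col1a2, Runx2, Sparc and Tnc within 2-fold. Over all 1545 genes past the filter, 5.24% were higher and 2.52% lower. Bmp4 and Adipoq passed the filter only through the highest quartile. Lpl went from the lowest to the highest quartile through 519, 764, 1864 and 3927 CPM, Kitl through 207, 369, 556 and 990.3 CPM and Vcam1 through 179.9, 288, 579 and 1262 CPM. Adipoq showed a step, at 8.27, 13.4, 254 and 789 CPM: 3 of 47 cells of the lowest quartile had a UMI and 40 of 49 of the highest. Bmp4 had 0 UMIs in the lowest quartile and 235 CPM in the highest, and Esm1 ran through 6.20, 15.4, 152 and 589.5 CPM. In the other direction Spp1 was at 8517, 7397, 3429 and 1310.5 CPM, Ibsp at 972, 657, 440.6 and 157 CPM, Alpl at 866, 724, 560.4 and 265 CPM and Postn, the periostin gene, at 327, 248, 89.3 and 31.8 CPM. Ebf1 stayed between 642 and 769.7 CPM, and Mmp13 changed little beside these, at 6300.2, 6202, 5189.8 and 4510.3 CPM. Median depth was 9356, 10084, 9628 and 9397 UMIs in the 4 quartiles. Haemoglobin moved too in its sum, with Hbb-bs at 3352 CPM in the lowest and 492 CPM in the highest quartile, where 47 of 47 and 46 of 49 cells had a UMI. The part of haemoglobin in these values was not tested.

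**Figure D3:**
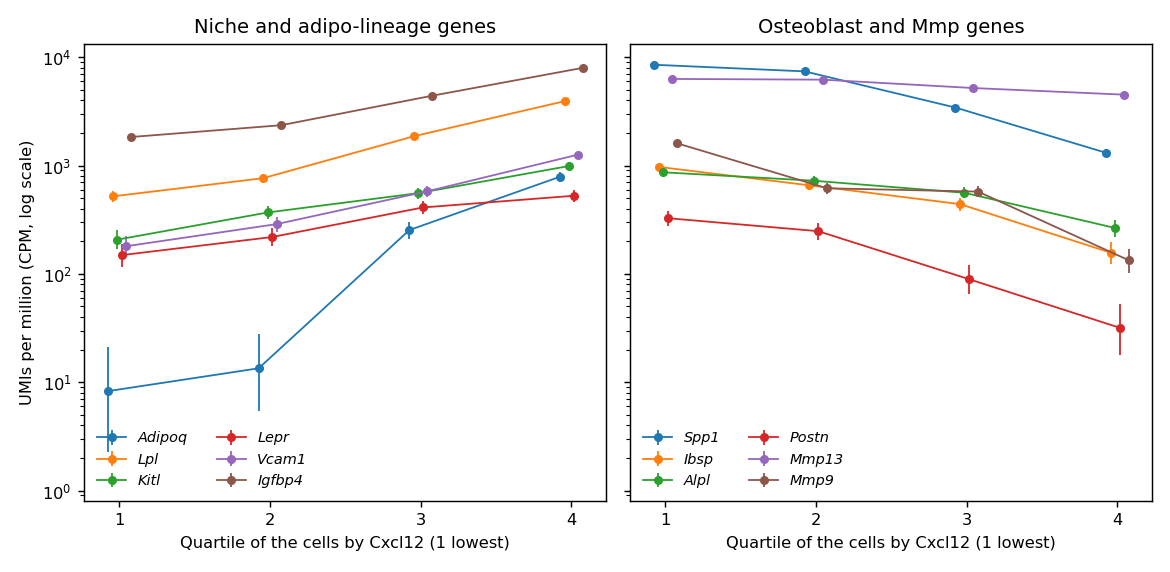
Summed level (CPM, log scale, exact Poisson 95% intervals) of 12 genes in quartiles of the Cxcl12-abundant cells by Cxcl12 per 10000, without the 4 cells rich in leukocyte RNA. The 6 niche and adipo-lineage genes on the left go up from quartile 1 to quartile 4, Adipoq mainly between quartiles 2 and 3, and the 6 osteoblast and Mmp genes on the right go down, Mmp13 least.

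With the same filter and without those 4 cells, 81 of 1545 genes (5.24%) were at least 2-fold higher in the top than in the bottom quartile. A further 39 (2.52%) were at least 2-fold lower. With all 197 cells the counts were 89 (5.5%) and 43 (2.66%) of 1617, and Cd74, H2-Eb1, H2-Aa, Retnlg, S100a9 and BC100530 were then among the 8 lowest ratios, with Mmp9 and Postn. Without the 4 cells those 6 were no longer among the 10 lowest. With all 197 cells the 8 largest ratios were those of Bmp4, Adipoq, Esm1, Sfrp1, Lox, Il1rn, Kng2 and Cxcl14. Without the 4 cells Rbp4 took the place of Cxcl14 among the 8. Mmp9 went through 1609, 616, 575 and 134 CPM. No count here is a test, since Cxcl12 chose both the cells and the quartiles.

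Clustering of the cells without the genes of the rule gave 3 sub-clusters. All 4 cells rich in leukocyte RNA fell in sub-cluster 2, which held 58 cells with them and was led by S100a8, S100a9, Ngp, Cd74 and Stfa1, with Adipoq after them. The values that follow leave those 4 cells out, a choice made after seeing the data. Sub-cluster 2 (54 cells) was then led by Adipoq, Il1rn, Esm1, Bmp4, Cbln1, Sfrp1, Chrdl1 and Cxcl14, with Adipoq at 824 CPM against 40.4 and 6.89 in sub-clusters 1 and 3, and Cxcl12 at a median of 155 per 10000 against 55.6 and 58.4. Sub-cluster 1 (83 cells) was led by Mmp9, Col18a1 and D10Wsu102e, with Mmp9 at 1424 CPM against 226 and 265. Sub-cluster 3 (56 cells) was led by haemoglobin genes, then Omd, Cenpa, Dlx6 and Aqp1. Its haemoglobin came to 5086 CPM, of which 84.9% lay in 2 cells, and to 796 CPM without them. It also held the most Spp1 (8628 CPM), Alpl (871), Postn (327) and Sp7 (72.3), while Ibsp was highest in sub-cluster 1, at 840 CPM against 586 CPM in sub-cluster 3. Since the leading genes are those that made the clusters, they describe them and test nothing.

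Of the 197 Cxcl12-abundant cells, 38 were HC-derived by the limit of more than 14 WPRE UMIs used in the study (19.3%, 14.03% to 25.5%). The rule used no reporter sequence. The share was 35.5% in mature osteoblasts (99 of 279, 29.9% to 41.4%) and 11.7% in Cxcl12-low cells (17 of 145, 6.98% to 18.1%). All 17 lay among the 93 Cxcl12-low cells without fibroblast genes, where the share was 18.3% (11.0% to 27.6%). It was 0 of 176 in Aspn-rich fibroblasts, which allows a share of up to 1.70% by the limit of 3 counts and 2.07% by the exact interval. It was 5.81% in pericytes (5 of 86, 1.91% to 13.05%), 0.352% in endothelial cells, 1.48% in leukocytes and 1.20% in late erythroid cells. The share in Cxcl12-abundant cells thus exceeded the background of leukocytes, and its interval overlapped those of both counts for Cxcl12-low cells. The limit of 14 UMIs takes no account of depth, which was a median of 18430 UMIs in mature osteoblasts and 9555 in Cxcl12-abundant cells. With a limit of more than 10 WPRE UMIs per 10000, the shares were 23.4% (17.6% to 29.9%) in Cxcl12-abundant cells and 32.3% (26.8% to 38.1%) in mature osteoblasts, whose intervals overlap.

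WPRE counts varied among the Cxcl12-abundant cells. There were 0 UMIs in 108 cells, 1 to 4 in 41, 5 to 14 in 10, 15 to 49 in 37 and 71 in 1 cell. At least 1 WPRE UMI was found in 45.2% of them but also in 44.5% of endothelial cells and 23.7% of leukocytes, so counts of 1 to 4 are read as background. More than 4 were found in 24.4% of them (48 of 197), in 2.11% of endothelial cells and in 1.81% of leukocytes. By the limit of the study, the 10 cells with 5 to 14 UMIs were not counted as HC-derived. The tdTomato sequence itself had a UMI in 13 cells (6.60%). By quartile of Cxcl12, 11, 6, 11 and 10 cells were HC-derived, with no trend in these counts. By sub-cluster the share was 27.7% in sub-cluster 1 (23 of 83, 18.4% to 38.6%), 24.1% in sub-cluster 2 (13 of 54, 13.5% to 37.6%) and 3.57% in sub-cluster 3 (2 of 56, 0.435% to 12.3%).

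**Figure D4:**
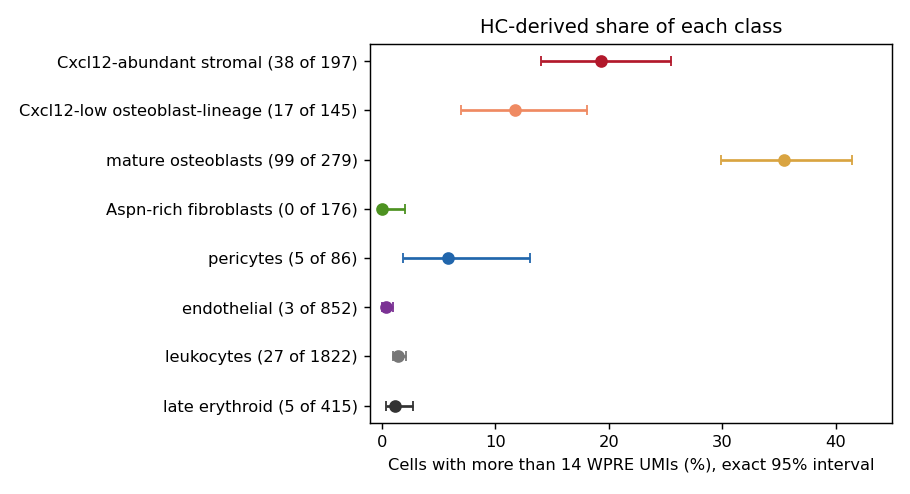
Share of cells with more than 14 WPRE UMIs (%, horizontal) in the 8 cell classes, with exact 95% intervals and the counts beside each name. Cxcl12-abundant stromal cells are at 19.3%, between the Cxcl12-low class at 11.7% and mature osteoblasts at 35.5%, and Aspn-rich fibroblasts are at 0.

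Few genes differed by 2-fold between HC-derived and other Cxcl12-abundant cells. The rule bounded Cxcl12 and its other genes in both groups, so their levels say nothing about likeness. Origin from HCs and the loss of 1 Irx3 allele in HCs cannot be told apart here. The 4 cells rich in leukocyte RNA, none of them HC-derived, were left out, which leaves 38 against 155 cells. Of 3098 genes past the filter, 19 (0.613%) were at least 2-fold higher in HC-derived cells and 36 (1.16%) at least 2-fold lower. With all 197 cells the counts were 18 (0.568%) and 52 (1.64%) of 3171, and the 8 lowest ratios were then all of leukocyte genes such as Cd74 and S100a8. Median depth was 9762 UMIs in HC-derived cells and 9397 in the other 159. Haemoglobin differed as well in its sum, with Hba-a2 at 72.5 CPM in HC-derived and 283 CPM in other cells. The share of cells with a Hba-a2 UMI was similar, at 55.3% and 56.8%. The part of haemoglobin in the differences was not tested.

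Mmp9 had the largest ratio of HC-derived to other cells, at 2280.1 CPM in HC-derived and 322 CPM in other cells, 7.07-fold (6.34 to 7.90). The median per cell was 908 against 69.6 CPM, and 32 of 38 cells against 80 of 155 had a UMI. Both groups held cells at 0, and the highest were at 19682 and 5265 CPM, so the groups overlapped. Without the top cell of each group the fold was 6.22. With all cells it was 8.03-fold (6.98 to 9.26) within sub-cluster 1 and 1.05-fold (0.688 to 1.57) within sub-cluster 2. Without the top cell of each group it was 6.89-fold within sub-cluster 1 and 1.79-fold within sub-cluster 2. In sub-cluster 2, 8 of 13 HC-derived and 14 of 41 other cells had a UMI. The osteoclast genes Acp5 and Ctsk were at 7.25 and 123 CPM in HC-derived cells and at 7.08 and 165 in the others, and Ocstamp, Dcstamp and Oscar were at 0 UMIs in both.

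Anxa3, encoding an annexin, was found in most HC-derived cells. It was at 149.8 CPM in HC-derived and 27.0 CPM in other cells, 5.54-fold (3.69 to 8.41), with a UMI in 33 of 38 HC-derived cells and in 35 of 155 others. The ratio was 6.87-fold (3.59 to 14.04) in sub-cluster 1 and 5.19-fold (2.52 to 11.2) in sub-cluster 2. Rgs4, a regulator of G protein signalling, was at 157 CPM in HC-derived and 34.1 CPM in other cells, 4.60-fold (3.15 to 6.75), Col18a1, a basement membrane collagen, at 213 CPM in HC-derived and 63.0 CPM in other cells, 3.37-fold (2.499 to 4.54) and Htra3, a secreted protease, at 176 CPM in HC-derived and 60.5 CPM in other cells, 2.92-fold (2.12 to 4.001). The nuclear receptor Nr4a3 and the chemokine Cxcl14 were 2.87-fold (1.94 to 4.24) and 2.71-fold (2.35 to 3.12) higher, and the unnamed transcript Gm16685 was also among the 8 largest ratios. Adipoq was at 447 CPM in HC-derived and 208 CPM in other cells, 2.15-fold (1.79 to 2.58). Of its 185 UMIs in HC-derived cells 43 lay in 1 cell, and without the top cell of each group the fold was 1.92. Lpl was at 2285 CPM in HC-derived and 1591 CPM in other cells, 1.44-fold (1.33 to 1.55), and Lepr was 1.45-fold (1.21 to 1.73) higher. Since sub-cluster 3 held 2 HC-derived cells, the ratios were also taken within sub-clusters 1 and 2 together, where they were 1.47-fold (1.22 to 1.76) for Adipoq, 1.09-fold (1.01 to 1.18) for Lpl and 1.13-fold (0.938 to 1.37) for Lepr, the last including equality. Within these 2 sub-clusters the ratio was 2.07-fold (1.79 to 2.39) for Cxcl14, and 1.305-fold for Adipoq without the top cell of each group.

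Genes lower in HC-derived cells were led by Lmo7, Postn, Eln, Pi15, Ptn and Fdps once the 4 cells rich in leukocyte RNA were set aside, a choice made after seeing the data. Postn was at 24.2 CPM in HC-derived and 216 CPM in other cells, 8.95-fold (4.81 to 18.8) lower, with a UMI in 7 of 38 against 98 of 155 cells. The fold of HC-derived over other cells was 0.157 (0.0704 to 0.308) within sub-cluster 1, and 0 against 16 UMIs within sub-cluster 2. Lmo7, of the actin cytoskeleton, was at 9.66 CPM in HC-derived and 93.3 CPM in other cells, with a UMI in 4 of 38 against 77 of 155 cells. Ptn was at 16.9 CPM in HC-derived and 87.5 CPM in other cells, and Aldh1a2 at 41.1 CPM in HC-derived and 169 CPM in other cells, 4.10-fold (2.51 to 7.15) lower. Eln, the elastin gene, was at 19.3 CPM in HC-derived and 153 CPM in other cells, and without the top cell of each group at 9.96 and 87.6 CPM. Its difference rested on few cells. Within sub-cluster 1 the fold of HC-derived over other cells was 0.764 (0.217 to 2.21), an interval that includes equal levels, and within sub-clusters 1 and 2 without the top cells Eln was at 10.5 against 22.4 CPM. The interval for Ptn within sub-cluster 1, 0.382 (0.0721 to 1.31), also included equal levels.

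**Figure D5:**
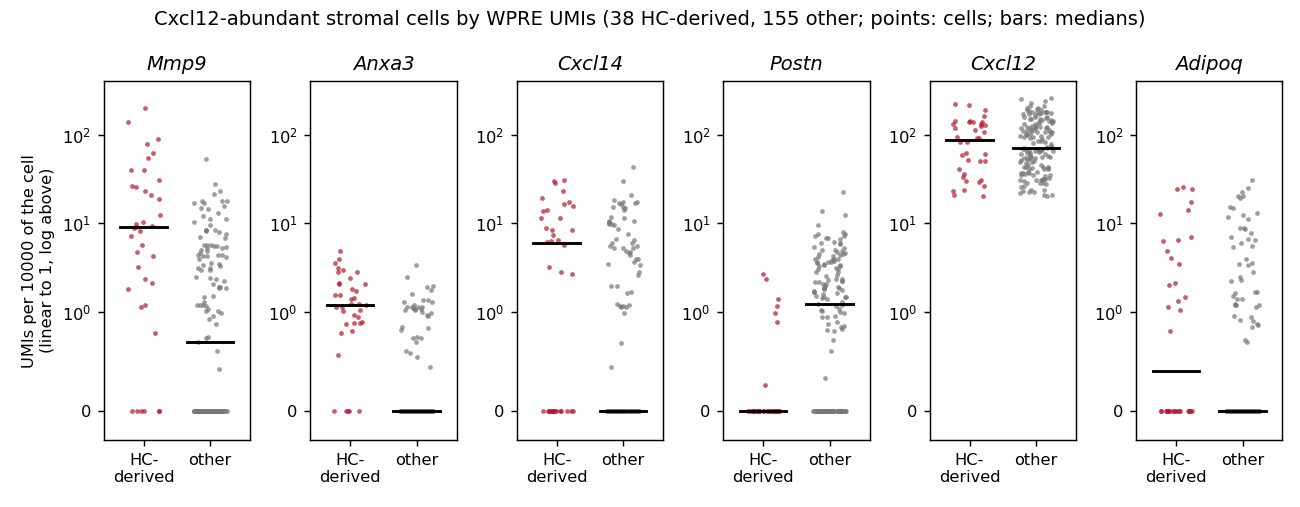
UMIs per 10000 of each cell (vertical, linear to 1 and logarithmic above) for 6 genes in the 38 HC-derived and 155 other Cxcl12-abundant cells. Points are cells and bars medians. The medians of Mmp9 and Anxa3 are higher in HC-derived cells, that of Postn is 0 there, and the Cxcl12 values of the groups overlap.

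Of 13 niche factors past the filter, 11 stayed within 2-fold between HC-derived and other cells, with Cxcl14 higher and Ptn lower in HC-derived cells. Over all 3098 genes 98.2% stayed within 2-fold, so the count says nothing particular about niche factors. Cxcl12 was at 8976 CPM in HC-derived and 8883 CPM in other cells (1.01-fold, 0.974 to 1.05), but 0.885-fold (0.851 to 0.919) within sub-clusters 1 and 2 together. Vcam1 was at 621 and 553, and Kitl at 442 CPM in HC-derived and 547 CPM in other cells, 0.808-fold (0.685 to 0.949). Mmp14 was at 664 CPM in HC-derived and 568 CPM in other cells, 1.17-fold (1.02 to 1.34) and Pth1r at 164 CPM in HC-derived and 184 CPM in other cells, 0.893-fold (0.675 to 1.17), so the interval of the Pth1r fold includes equality. Mmp13 was 1.24-fold (1.18 to 1.29) and Spp1 0.663-fold (0.628 to 0.7002) of the level in other cells. Within sub-clusters 1 and 2 the folds were 1.08 (1.03 to 1.13) for Mmp13, 0.865 (0.813 to 0.921) for Spp1 and 0.688 (0.579 to 0.814) for Kitl. Col10a1, the collagen gene of HCs themselves, was at 24.2 and 29.6 CPM, and Acan, a cartilage proteoglycan gene, at 89.4 and 89.4 CPM.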

How the data were processed

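The data are unique molecular identifier (UMI) counts per gene and barcode from 1 droplet library of a P6 mouse tibia. Per the submitters' processing notes, the authors made the deposited counts with Cell Ranger 3.1.0 on mm10 with reporter sequences added, and Seurat 3 was used downstream. A second deposited count matrix holds the reporter sequences and was joined by barcode. The gene matrix holds 14181 barcodes, 31053 genes and 158281984 UMIs, with a median of 8235 per barcode, and the depth of each class limits its rare genes to the counting intervals given.

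Cells were chosen by the rule in the report, and the comparison classes by limits on Col1a1, Cxcl12, Rgs5, Ifitm5, Aspn, Cdh5, Ptprc and haemoglobin. Counts were summed over each class and given as CPM. Genes with at least 50 CPM in either class and 100 UMIs together were compared on log2 ratios with 1 CPM added, and 2-fold was the size called. Genes of the class limits were left out of those counts. With 1 library no model was fitted and no p was computed. Shares of cells with a UMI were taken after thinning to 5000 UMIs. Scrublet, at an expected doublet rate of 10%, marked 588 barcodes (4.15%), 2 of them among the 197 cells, and all were kept. Sub-clusters came from Leiden clustering at a resolution of 0.5, with 15 neighbours, 15 principal components and 1000 variable genes. Scripts were tested on simulated data.

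Genes named are those of the lists, the 15 largest and 10 smallest ratios over Cxcl12-low cells, the 10 largest over all 4 classes, and the 8 largest and smallest within the cells. The cells and lists were chosen with earlier results of these data known. Alternatives added after seeing the data left out cells rich in leukocyte RNA or haemoglobin, a sub-cluster, and comparison cells with fibroblast genes. Coordinates are from GENCODE M21 (GRCm38, the assembly of mm10), which held 31011 of the 31053 gene IDs. Python 3.11.15, numpy 2.4.6, scipy 1.17.1, pandas 2.3.3, scanpy 1.11.5 and matplotlib 3.10.9 were used.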

Additional observations from a re-analysis of the deposited data

Results flagged for a closer look

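Sequences outside the comparisons gave a few counts. EGFP, one of the added reporter sequences, had 60 UMIs over all barcodes of the gene matrix, in 53 barcodes, of which 2 were Cxcl12-abundant cells, 4 Cxcl12-low cells and 7 mature osteoblasts. The CRE sequence had 6 UMIs in 6 barcodes and 0 in Cxcl12-abundant cells. Both are given because they lie above the limit of 3 counts that a count of 0 allows, and neither enters a comparison of the report.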

How the results depend on the processing

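With 1 library, leaving out a replicate was impossible, and its 4 sequencing entries cannot be separated in the files. No paired analysis was possible because there is 1 library and no test. The number of Cxcl12-abundant cells, their HC-derived share and the counts of genes higher and lower than in Cxcl12-low cells moved with these choices. With at most 5% mitochondrial UMIs there were 66 cells, an HC-derived share of 13.6%, 289 higher and 98 lower genes. With no filter on low counts, 1956 genes were higher and 1378 lower. At least 1 WPRE UMI gave a share of 45.2% and at least 1 tdTomato UMI 6.60%. Without the sub-cluster richest in haemoglobin the share was 25.5%, and without comparison cells with fibroblast genes 140 genes were lower, both chosen after seeing the data. The other alternatives moved these 4 results by less than 1.5 times or than their counting interval. Of 900 recomputed log2 ratios of 60 genes over Cxcl12-low cells, 128 moved beyond the counting interval. The sign was kept in 882 and changed for Alpl, Grem1 and Mmp14, with Kera at 0 in 1 setting. Beyond what the settings themselves remove, the causes were not tested. Counting intervals hold no variation between animals, and a Cxcl12 limit of 10 or 40 per 10000 gave 242 and 150 cells.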
